A study of Mus musculus with 12 samples.

Results

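The TNF superfamily comprises ligands, mostly membrane proteins built as trimers, and the receptors that bind them. Genes of the superfamily were selected by name from the array design: every gene named with a Tnfsf or Tnfrsf number, together with Tnf, Lta, Ltb, Ltbr, Fas, Fasl, Cd40, Cd40lg, Cd27 and Cd70. The selection gave 40 genes (16 ligands and 24 receptors) of the 30101 genes on the array, covered by 51 probes. The rule uses gene names and no measured value.

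RNA of CD4+ T cells in 4 states was measured on 12 single-colour mouse arrays, 3 per group. Naive cells came from the spleen of B6.2d2 mice, which carry a transgenic T cell receptor for myelin oligodendrocyte glycoprotein (MOG). Cultured Th17 cells were B6.2d2 cells polarised in vitro. Transferred CNS cells were such cultured B6.2d2 Th17 cells that had been given to Rag1-/- mice, which have no T and B lymphocytes, and recovered from the central nervous system (CNS) when experimental autoimmune encephalomyelitis (EAE) was at its height. Immunised CNS cells were CD4+ cells from the CNS of C57BL/6 mice at the same stage after immunisation with the MOG35-55 peptide. These mice have their own varied T cell receptors, so the immunised cells differ from the transferred cells in host genotype, receptor and history at once, and these cannot be told apart. The number of mice behind each array is not given in the sources used here. The series text describes the 3 replicates of a group as separate experiments.

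Receptors of the family pass their signal on in one of a few ways. Costimulatory receptors such as OX40, GITR and 4-1BB bind TRAF adaptor proteins, activate NF-kappaB and prolong the response of an activated T cell. Death receptors such as Fas carry a cytoplasmic death domain and can start the caspase cascade. In EAE, TNF and lymphotoxin are known as inflammatory mediators, Fas and its ligand as regulators of T cell survival, and RANK ligand as a product of helper T cells.

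The promoters of some family members that recur below are shown. Tnfrsf4 and Tnfrsf18 lie side by side on a chromosome and differed together. The other 4 were chosen because they hold a match to a motif of NF-kappaB or AP-1. These transcription factors act downstream of T cell activation and of the receptors. The promoters of Tnf, Fasl and Tnfsf11 held neither motif and are not shown, so the sequences shown do not give the family's share. Each sequence is the 250 bases before the annotated start of transcription in RefSeq (GRCm38.p6), written 5′ to 3′ along the gene, in lower case with motif matches in capitals. The AP-1 motif searched was TGANTCA and the other was the kappaB consensus, each on both strands.
Tnfrsf4, OX40 (chr4:156013445-156013694, plus strand): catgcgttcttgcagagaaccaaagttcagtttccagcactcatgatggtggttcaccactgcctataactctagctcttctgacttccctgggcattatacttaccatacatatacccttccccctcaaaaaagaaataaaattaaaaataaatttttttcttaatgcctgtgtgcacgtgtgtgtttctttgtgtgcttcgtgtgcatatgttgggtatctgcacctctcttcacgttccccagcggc
Tnfrsf18, GITR (chr4:156026072-156026321, plus strand): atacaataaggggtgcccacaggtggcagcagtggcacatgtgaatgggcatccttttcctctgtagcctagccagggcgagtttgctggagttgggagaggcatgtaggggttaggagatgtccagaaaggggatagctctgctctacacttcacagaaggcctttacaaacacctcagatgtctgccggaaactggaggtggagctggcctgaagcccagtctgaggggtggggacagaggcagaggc
Tnfrsf8, CD30 (chr4:145315165-145315414, minus strand): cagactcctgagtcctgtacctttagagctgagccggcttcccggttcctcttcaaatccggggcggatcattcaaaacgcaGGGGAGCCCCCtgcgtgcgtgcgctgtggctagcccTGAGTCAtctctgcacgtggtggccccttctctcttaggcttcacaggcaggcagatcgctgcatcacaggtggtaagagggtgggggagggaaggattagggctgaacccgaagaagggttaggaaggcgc
Tnfrsf9, 4-1BB, the downstream of its 2 starts (chr4:150927749-150927998, plus strand): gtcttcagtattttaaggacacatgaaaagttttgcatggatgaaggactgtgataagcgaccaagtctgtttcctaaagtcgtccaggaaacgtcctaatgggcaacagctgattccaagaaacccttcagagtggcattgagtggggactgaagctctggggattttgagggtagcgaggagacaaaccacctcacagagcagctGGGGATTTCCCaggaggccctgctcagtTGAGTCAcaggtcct
Tnfsf14, LIGHT (chr17:57194182-57194431, minus strand): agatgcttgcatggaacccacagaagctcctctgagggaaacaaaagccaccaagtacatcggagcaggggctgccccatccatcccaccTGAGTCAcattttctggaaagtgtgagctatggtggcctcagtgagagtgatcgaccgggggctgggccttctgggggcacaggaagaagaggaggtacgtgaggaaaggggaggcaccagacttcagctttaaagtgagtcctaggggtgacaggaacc
Ltb, lymphotoxin beta (chr17:35194257-35194506, plus strand): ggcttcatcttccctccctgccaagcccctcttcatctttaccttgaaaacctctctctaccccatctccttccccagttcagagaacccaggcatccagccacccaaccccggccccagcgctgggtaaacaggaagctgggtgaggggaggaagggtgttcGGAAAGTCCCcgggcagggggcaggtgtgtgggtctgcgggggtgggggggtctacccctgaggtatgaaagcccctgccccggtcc

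The Ltb sequence holds 1 kappaB match, which begins 87 bases before the start. The Tnfrsf8 and Tnfrsf9 sequences each hold 2 overlapping kappaB matches and 1 AP-1 match, and the AP-1 matches lie 132 and 15 bases before the start. The Tnfsf14 sequence holds 1 AP-1 match, 160 bases before the start. In the Tnfrsf4 and Tnfrsf18 sequences neither motif was found, which says only that these letters are not in these windows. Promoters were matched for 30 of the 40 members (34 promoters). A kappaB match was found in 4 of the 34 (11.76%), against 7.251% of all 32851 mouse promoters of that length, and an AP-1 match in 5 (14.71%), against 6.749%. The remaining matches were in a second promoter of Tnfrsf25 (kappaB), in Fas and in a second promoter of Tnfsf13b (AP-1). These matches are a description of sequence and were not tested as binding sites.

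Levels are log2 signals relative to the array's 75th percentile, so a negative level is dimmer than that percentile, and they are compared only between arrays for the same probe. Between 57.12% and 64.88% of spots per array were well above background, no spot was saturated, and arrays of one group correlated at r of 0.954 or more. The lowest of these correlations was in the cultured Th17 group, whose replicate 3 stood apart for several family members: its Tnf level was −1.88 against 0.90 and 2.26 on the other culture arrays, and its Cd40lg level −7.83 against −4.42 and −4.01. All 10 T cell marker genes were well above background on every array, although 5 of them fell from culture to the transferred CNS cells and 7 were lower there than in naive cells. Cd4 itself measured 4.60, 5.0, 4.32 and 4.53 on average in naive, cultured, transferred and immunised cells. Il17a, Il17f, Il23r and Il22, genes of Th17 cells, rose in culture and fell from culture to the transferred CNS cells. Genes of macrophages and monocytes were measured in the CNS cells as well: their summed linear signal, in multiples of the array's 75th percentile, was 2.02 to 2.67 on naive arrays, 4.58 to 8.03 on cultured arrays, 569 to 869 on transferred CNS arrays and 404 to 942 on immunised CNS arrays. All 12 genes of that list were higher in each CNS group than in naive and in cultured cells. Among them the complement gene C1qc was not well above background on any naive or cultured array. The summed signal of 8 neutrophil genes was 112 to 227 on naive, 90.4 to 104 on cultured, 97.4 to 247 on transferred and 477 to 581 on immunised arrays. Csf3r, bright in every group (7.11, 6.39, 6.32 and 6.13 on average), weighs on that sum. Against culture, 3 of the 8 were higher and 1 lower in transferred cells, and 5 higher and 0 lower in immunised cells. S100a8 measured −2.79, 0.26, 3.23 and 7.28 in the same order of groups, with an SD of 2.33 in transferred cells. Of 7 microglia genes, 6 were higher in each CNS group than in culture, among them P2ry12, which measured −6.40, −7.43, −0.52 and −0.33 on average in naive, cultured, transferred and immunised cells and was well above background on no culture array. Of 6 tested dendritic cell genes, 3 were higher in transferred and 4 in immunised cells than in culture, and Itgax measured −6.26, −0.84, 3.03 and 2.13 in the same order, while Xcr1 was well above background on no array. Siglech stands on both of these lists.

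Of the 40 members, 37 met the filter, which asks for a signal well above background on each of the 3 arrays of some group, and entered the test across 18631 genes. The 3 that did not were Tnfsf18, the GITR ligand gene, Tnfrsf11b, which encodes the decoy receptor osteoprotegerin, and Tnfrsf17, the BCMA gene of plasma cells. A member is called higher or lower where limma's moderated test gave a Benjamini-Hochberg adjusted p under 0.05 over all 18631 genes.

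**Figure D1:**
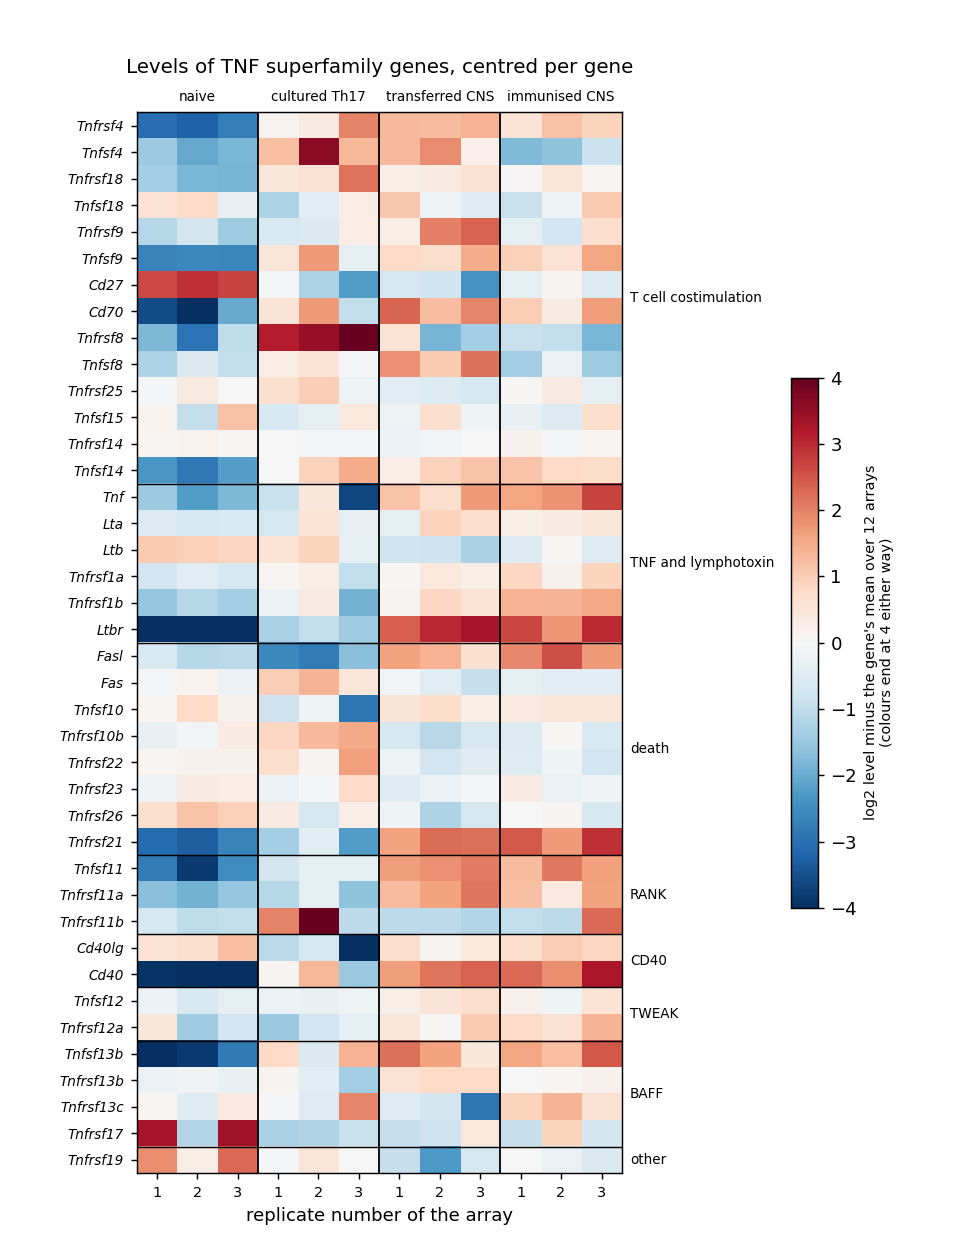
Level of each of the 40 members on the 12 arrays, as the log2 level minus the gene's mean over all arrays, with arrays in columns by group and replicate and genes in rows by signalling axis. Red is above and blue below the gene's own mean: Ltbr, Cd40 and Tnfrsf21 are blue on naive and red on CNS arrays, Tnfrsf8 is red on the cultured arrays, and Cd27 is red on the naive arrays.

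Cultured Th17 cells, compared with naive cells, had 15 members higher and 5 lower. Over all genes tested, 19.7% were called higher and 20.4% lower. The 5 lower members were Cd27, Cd40lg, Tnfsf10, Fasl and Tnfrsf26. The median difference over all 40 members was 0.57 on the log2 scale, against −0.22 over all genes on the array. Transferred CNS cells, compared with cultured cells, had 14 members higher and 6 lower, where 12.8% of all genes were higher and 15.5% lower. Of these, 7 of 15 tested ligands were higher and 1, Ltb, was lower, while 7 of 22 tested receptors were higher and 5 lower. Without transfer replicate 2, or without transfer replicate 3, 11 members were called in that comparison. Immunised CNS cells differed from transferred CNS cells in 1 member, Tnfsf8, which was lower. Of all genes, 1.85% were higher and 1.37% lower there. The number of members called was 2 without culture replicate 2 or without transfer replicate 1, and 5 without culture replicate 3, an array that enters only through the shared estimate of spread.

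Set against naive cells, transferred CNS cells had 21 members higher and 5 lower (21.2% and 26.5% of all genes), with a median over the 40 members of 1.0 against −0.08 over all genes. Immunised CNS cells had 18 higher and 4 lower (20.6% and 27.7% of all genes), with a median of 0.81 against −0.11. Both comparisons share the naive arrays and are given side by side. Immunised CNS cells against cultured cells gave 11 higher and 6 lower members (13.7% and 17.8% of all genes). Tnfrsf14, Tnfrsf23, Tnfrsf13c and Tnfsf15 passed the threshold in none of the 6 comparisons.

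The costimulatory group holds 7 ligands and 7 receptors. In culture, 5 ligands (Tnfsf4, Cd70, Tnfsf14, Tnfsf9 and Tnfsf8) and 3 receptors (Tnfrsf8, Tnfrsf4 and Tnfrsf18) rose against naive cells, and the receptor Cd27 fell, where 19.7% of all genes were higher and 20.4% lower. Tnfrsf4 encodes OX40, a receptor that appears on T cells after antigen recognition, and its probe lies at chr4:155390639-155390698 (mm9, as in the probe annotation). Tnfrsf4 levels were 1.79, 1.59 and 2.07 on the naive arrays, 4.99, 5.18 and 6.84 on the cultured Th17 arrays, 6.14, 6.10 and 6.23 on the transferred CNS arrays and 5.40, 6.00 and 5.74 on the immunised CNS arrays. The naive arrays lay far below all the others, and the culture and CNS arrays overlapped. The gene rose by 3.85 ± 0.40 (adjusted p = 4.74e-05) in culture, a 14.5-fold difference, and it stood 4.33 ± 0.40 (adjusted p = 1.78e-05) above naive cells after transfer and 3.90 ± 0.40 (adjusted p = 3.7e-05) above them after immunisation. Errors of differences are standard errors of the fit. Transferred cells differed from culture by 0.48 ± 0.40 (adjusted p = 0.42), and by more than the threshold only without culture replicate 3 (adjusted p = 0.00483). The same array, whose level of 6.84 was the highest of all, decided the comparison of immunised cells with culture, where the difference was 0.04 ± 0.40 (adjusted p = 0.946) with it and passed the threshold without culture replicate 3 (adjusted p = 0.0468).

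Tnfrsf18, whose probe lies 12.2 kb from that of Tnfrsf4 on chromosome 4 (chr4:155402941-155403000), encodes GITR, a receptor that is abundant on regulatory T cells and induced on other T cells by activation. Tnfrsf18 levels were 3.24, 2.75 and 2.73 on the naive arrays, 5.04, 5.21 and 6.77 on the cultured Th17 arrays, 4.82, 4.96 and 5.20 on the transferred CNS arrays and 4.65, 5.09 and 4.68 on the immunised CNS arrays. All 9 antigen-experienced arrays lay above the 3 naive arrays. The gene rose by 2.76 ± 0.39 (adjusted p = 0.000319) in culture, and was 2.09 ± 0.39 (adjusted p = 0.0015) above naive cells in transferred and 1.90 ± 0.39 (adjusted p = 0.00263) above them in immunised cells. For both neighbours the naive arrays were lowest and culture replicate 3 was the highest array. Regulatory T cell markers were measured beside them: the summed signal of Foxp3, Ikzf2, Il2ra and Ctla4 was 2.74 to 2.91 in naive, 46.5 to 97 in cultured, 13.1 to 15.1 in transferred and 17.5 to 26.1 in immunised cells. In culture Il2ra and Ctla4, which other activated T cells also express, were higher than in naive cells, while Foxp3 and Ikzf2 were lower. Foxp3, the lineage factor, measured −1.08, −3.31, −2.50 and 1.75 on average in naive, cultured, transferred and immunised cells, and Ikzf2 measured 0.01, −6.23, −4.03 and 0.40. The part of regulatory T cells in the Tnfrsf18 values was not tested.

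Tnfrsf8 encodes CD30, an activation receptor of lymphocytes, and was highest in culture against each of the other groups. Its levels (probe chr4:144882582-144882641) were −6.37, −7.54 and −5.58 on the naive arrays, −1.44, −1.09 and 0.93 on the cultured Th17 arrays, −4.0, −6.44 and −5.93 on the transferred CNS arrays and −5.48, −5.55 and −6.42 on the immunised CNS arrays. No naive array and no immunised array was well above background, and 1 of the 3 transferred arrays was. The culture level was at least 31.8-fold above naive cells (adjusted p = 0.000172) and at least 30.6-fold above immunised cells (adjusted p = 0.000587). Such bounds set the brighter group's mean against the dimmest signal that could still be measured on the dimmer group's arrays. Against transferred cells the culture level was at least 23.3-fold higher (adjusted p = 0.00105), with the 2 dim transferred arrays taken at that limit. Its ligand gene Tnfsf8, the CD30 ligand, took another course and was the only member called between the CNS groups. Tnfsf8 levels (probe chr4:63493871-63493930) were 0.14, 0.78 and 0.40 on the naive arrays, 1.66, 1.93 and 1.34 on the cultured Th17 arrays, 3.20, 2.43 and 3.57 on the transferred CNS arrays and −0.02, 1.11 and −0.05 on the immunised CNS arrays. The transferred arrays were the highest of all 12, and the immunised arrays overlapped the naive ones. Immunised cells were lower than transferred cells (−2.72 ± 0.37, adjusted p = 0.0034), a 6.6-fold difference that passed the threshold in every fit with 1 array left out. The rise of 1.21 ± 0.37 (adjusted p = 0.0248) from naive cells to culture was lost without naive replicate 1 or 3 or culture replicate 1 or 2 (adjusted p from 0.0584 to 0.0785), and the rise of 1.42 ± 0.37 (adjusted p = 0.0164) from culture to transfer was lost without transfer replicate 3 (adjusted p = 0.0652). The difference of −1.30 ± 0.37 between immunised cells and culture (adjusted p = 0.0226) was lost without culture replicate 1 or 2 or immunised replicate 1 or 3 (adjusted p from 0.0529 to 0.0858).

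Tnfsf4, the OX40 ligand gene, is known mainly from antigen-presenting cells and is also found in activated T cells. Its levels (probe chr1:163348095-163348153) were −7.25, −7.87 and −7.64 on the naive arrays, −4.62, −2.19 and −4.50 on the cultured Th17 arrays, −4.51, −3.92 and −5.60 on the transferred CNS arrays and −7.56, −7.44 and −6.66 on the immunised CNS arrays. No naive or immunised array was well above background, 3 culture arrays and 2 transferred arrays were. The level was at least 3.48-fold higher in culture than in naive cells (adjusted p = 0.000786), at least 1.86-fold higher in transferred than in naive cells (adjusted p = 0.00312) and at least 3.35-fold lower in immunised cells than in culture (adjusted p = 0.00212). The transferred against naive call was lost with normexp background correction (0.188). Immunised and transferred arrays did not overlap, with immunised cells at least 1.79-fold lower (adjusted p = 0.0558), which missed the threshold and passed without culture replicate 2 or 3 (adjusted p from 0.0116 to 0.0396) and in a fit of only the 6 arrays compared (0.0409). Tnfsf18, the GITR ligand gene, was on average between −7.44 and −6.62 in the 4 groups and was not tested.

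Tnfsf9, Cd70 and Tnfsf14 lie side by side on chromosome 17, with 38.3 and 43.7 kb between their probes, and encode 4-1BB ligand, CD70 and LIGHT. All 3 rose in culture and stayed above naive cells in both CNS groups. Tnfsf9 levels were −2.28 ± 0.04 in naive, 0.95 ± 1.05 in cultured, 1.34 ± 0.42 in transferred and 1.38 ± 0.51 in immunised cells (mean ± SD, n = 3), a rise of 3.23 ± 0.46 (adjusted p = 0.000326) in culture. Tnfsf14, whose product binds HVEM and the lymphotoxin beta receptor, measured −1.64 ± 0.36, 1.62 ± 0.75, 1.61 ± 0.45 and 1.72 ± 0.21 in the same order. It rose by 3.25 ± 0.37 (adjusted p = 7.18e-05), and the culture and both CNS groups then overlapped, with differences between −0.01 and 0.11. Cd70, the ligand gene of CD27, had levels of −7.46, −8.10 and −5.89 on the naive arrays, −3.35, −2.19 and −4.86 on the cultured Th17 arrays, −1.54, −2.65 and −1.92 on the transferred CNS arrays and −2.88, −3.51 and −2.20 on the immunised CNS arrays. No naive array was well above background for Cd70, and all the others were. Its level was at least 4.29-fold higher in culture (adjusted p = 0.00214), at least 11.6-fold higher in transferred (adjusted p = 0.000223) and at least 6.53-fold higher in immunised cells (adjusted p = 0.0007) than in naive cells.

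Cd27 encodes the receptor of CD70 and is a receptor of resting T cells that is lost on full differentiation. Its levels (probe chr6:125183076-125183135) ran opposite to those of its ligand gene and were 2.24, 2.5 and 2.29 on the naive arrays, −0.49, −1.69 and −2.63 on the cultured Th17 arrays, −1.09, −1.20 and −2.80 on the transferred CNS arrays and −0.80, −0.30 and −0.97 on the immunised CNS arrays. The 3 naive arrays lay above all 9 others. Cd27 fell by 3.95 ± 0.54 (adjusted p = 0.00026) in culture, and it was lower than in naive cells after transfer (−4.04 ± 0.54, adjusted p = 0.000183) and after immunisation (−3.03 ± 0.54, adjusted p = 0.00112). A second Cd27 probe gave the same picture, at −3.93 in culture and −3.93 and −2.84 in the CNS groups against naive cells.

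**Figure D2:**
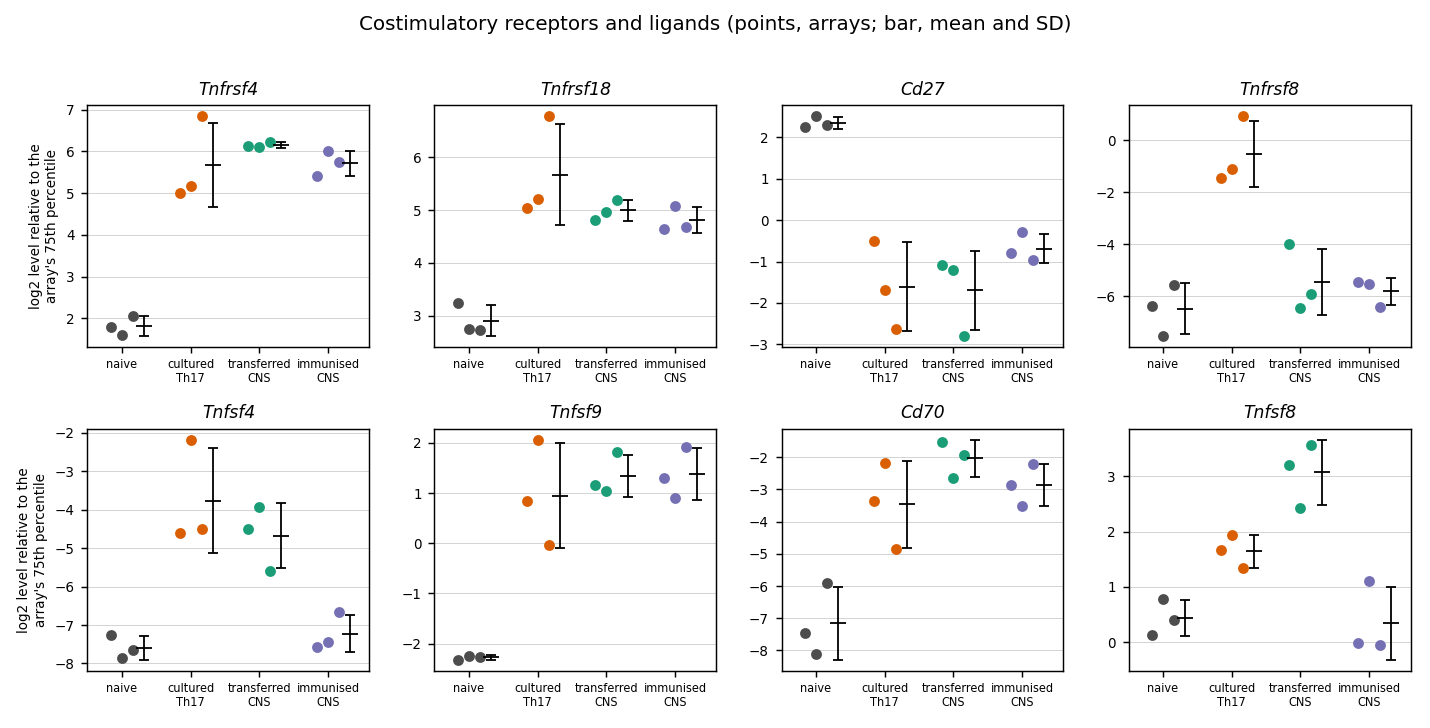
Levels of costimulatory ligand and receptor genes on each array, as log2 signal relative to the array's 75th percentile on the vertical axis and the 4 groups on the horizontal axis, with the mean and SD of 3 arrays beside the points. Tnfrsf4 and Tnfrsf18 are lowest in naive cells, Tnfrsf8 is highest in culture, Tnfsf8 is highest in transferred cells and Cd27 is highest in naive cells.

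Tnfrsf9, the 4-1BB gene, has 2 probes that gave different orders of the groups, so its course is not settled here. The brighter probe (chr4:150319582-150319641) measured 1.04, 1.47 and 0.78 on the naive arrays, 1.59, 1.63 and 2.49 on the cultured Th17 arrays, 2.46, 4.22 and 4.57 on the transferred CNS arrays and 1.85, 1.42 and 2.86 on the immunised CNS arrays. By that probe the gene was highest in transferred cells, higher than in culture by 1.84 ± 0.54 (adjusted p = 0.0281) and than in naive cells by 2.65 ± 0.54 (adjusted p = 0.0025). The first of these calls was lost without culture replicate 1 or 2 or transfer replicate 2 or 3 (adjusted p from 0.0755 to 0.107) and with the mean of all the gene's probes (0.858) and in a fit of only the 6 arrays compared (0.0769). A second probe of the gene measured −3.25 ± 0.41 in naive, 2.65 ± 2.12 in cultured, 0.43 ± 0.81 in transferred and 1.57 ± 0.36 in immunised cells (mean ± SD, n = 3), with culture highest. On the mean of both probes the culture rose above naive cells by 3.35 (adjusted p = 0.00155), where the brighter probe alone gave 0.81 ± 0.54 (adjusted p = 0.264), and immunised cells stood above naive cells by 2.88 (adjusted p = 0.00303), where it gave 0.94 ± 0.54 (adjusted p = 0.174). Immunised and transferred cells differed by −1.71 ± 0.54 (adjusted p = 0.117), which passed without transfer replicate 1 (adjusted p = 0.0221).

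**Figure D3:**
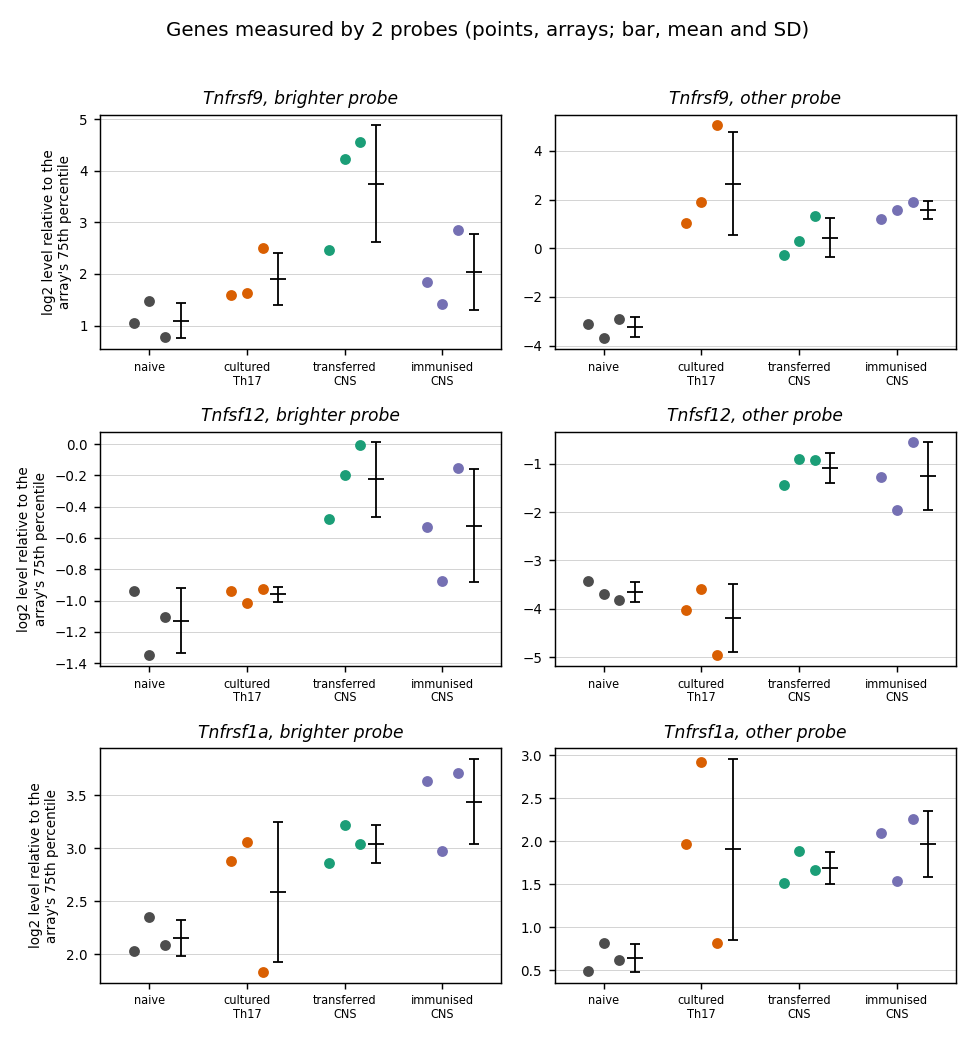
Members whose probes disagree, with both probes of a gene side by side: log2 signal relative to the array's 75th percentile by group, one point per array, with the mean and SD of 3 arrays. The brighter Tnfrsf9 probe is highest in transferred cells and the other is highest in culture.

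The remaining costimulatory members changed less. Tnfrsf25 encodes DR3, a death-domain receptor of resting and activated T cells, and its group means ran from 3.85 in transferred cells to 4.88 in culture. It fell by 1.04 ± 0.30 (adjusted p = 0.0257) from culture to transfer, a call that was lost without culture replicate 1 or 2 or transfer replicate 2 or 3 (adjusted p from 0.064 to 0.0833) and with the deposited matrix values (0.0743), in a fit of only the 6 arrays compared (0.0777) and with quantile normalization (0.0744). Transferred cells passed against naive cells without culture replicate 3 (adjusted p = 0.0291) and in a fit of only the 6 arrays compared (0.0284) and with slide, which is the replicate number, as a block (0.0396), and without the same array so did culture against naive cells (adjusted p = 0.0384) and immunised cells against culture (adjusted p = 0.0303). Its ligand gene Tnfsf15 (TL1A) had group means between −3.95 and −3.63. Tnfrsf14, the gene of HVEM, the receptor of LIGHT, had group means within −2.53 to −2.34 by its brighter probe, with differences of −0.19 to 0.17 in the 6 comparisons. A second Tnfrsf14 probe, well above background on every array, differed more. Its group means ran from −2.98 in transferred to −2.25 in immunised cells, with differences of −0.55 to 0.72.

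In the TNF and lymphotoxin group, 5 of the 6 members were higher and 1, Ltb, was lower in each CNS group than in naive cells, where 21.2% and 20.6% of all genes were higher and 26.5% and 27.7% lower in transferred and immunised cells. The calls of Lta in both groups and of Tnfrsf1a in transferred cells were lost under several of the settings given with them. Tnf encodes the inflammatory cytokine itself. Its levels (probe chr17:35336795-35336854) were 0.34, −0.45 and 0.02 on the naive arrays, 0.90, 2.26 and −1.88 on the cultured Th17 arrays, 2.94, 2.5 and 3.49 on the transferred CNS arrays and 3.38, 3.59 and 4.49 on the immunised CNS arrays. All 6 CNS arrays lay above all 6 others, and the 3 culture arrays spread widely around the naive ones. Tnf was higher than in naive cells by 3.01 ± 0.82 (adjusted p = 0.0117) in transferred cells and by 3.85 ± 0.82 (adjusted p = 0.00319) in immunised cells, which are 8.05-fold and 14.4-fold differences. Against culture, it was higher by 2.55 ± 0.82 (adjusted p = 0.0402) in transferred and 3.39 ± 0.82 (adjusted p = 0.0104) in immunised cells. The first of those calls was lost without naive replicate 1, 2 or 3, culture replicate 1 or 3, transfer replicate 1, 2 or 3 or immunised replicate 1 or 2 (adjusted p from 0.0517 to 0.122) and with no filter on dim probes (0.0652), in a fit of only the 6 arrays compared (0.127) and with slide, which is the replicate number, as a block (0.0653). The second was lost in a fit of only the 6 arrays compared (0.0559). Culture and naive cells differed by 0.46 ± 0.82 (adjusted p = 0.686), and the difference passed the threshold without culture replicate 3 (adjusted p = 0.0248).

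Ltb encodes lymphotoxin beta, the membrane anchor of the lymphotoxin heterotrimer, and lies 3.64 kb from Tnf by probe position, with Lta 3.42 kb beyond it on chromosome 17. Its levels were 7.54, 7.44 and 7.35 on the naive arrays, 7.05, 7.39 and 6.09 on the cultured Th17 arrays, 5.70, 5.66 and 5.20 on the transferred CNS arrays and 5.95, 6.53 and 5.96 on the immunised CNS arrays. Naive and culture arrays overlapped, and the transferred arrays were the lowest. Ltb fell by 1.32 ± 0.31 (adjusted p = 0.0102) from culture to transfer, and it was lower than in naive cells in transferred (−1.92 ± 0.31, adjusted p = 0.000588) and immunised cells (−1.30 ± 0.31, adjusted p = 0.00595). The first call was lost in a fit of only the 6 arrays compared (0.0538), and the last with the deposited matrix values (0.0609) and with quantile normalization (0.0608). Immunised cells fell below culture only without culture replicate 3 (adjusted p = 0.00776), and culture below naive cells only without culture replicate 2 (adjusted p = 0.0493). Lta, which encodes the soluble partner, differed in the other direction from Ltb. Its means were 0.51 ± 0.06 in naive, 0.97 ± 0.65 in cultured, 1.56 ± 0.69 in transferred and 1.46 ± 0.10 in immunised cells (mean ± SD, n = 3). Lta was higher than in naive cells by 1.05 ± 0.36 (adjusted p = 0.0329) after transfer and by 0.96 ± 0.36 (adjusted p = 0.0474) after immunisation. The transfer call was lost without naive replicate 1, 2 or 3 or transfer replicate 2 or 3 (adjusted p from 0.0637 to 0.125) and with no filter on dim probes (0.0534), and the immunisation call was lost without naive replicate 1, 2 or 3, culture replicate 3, transfer replicate 3 or immunised replicate 1, 2 or 3 (adjusted p from 0.0511 to 0.121) and with median scaling (0.0549), with no filter on dim probes (0.075) and with quantile normalization (0.0528). Against culture, transferred cells passed the threshold only without transfer replicate 1 (adjusted p = 0.0456). Neighbouring genes of the same cluster therefore differed in opposite directions between naive and CNS cells, Tnf and Lta upward and Ltb downward. On the same arrays the macrophage sum was at most 2.67 in naive cells and at least 404 in CNS cells. Of 10 T cell genes, 7 were lower in transferred and 5 in immunised cells than in naive cells. The part of the cell mixture in the Tnf, Lta and Ltb values was not tested.

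**Figure D4:**
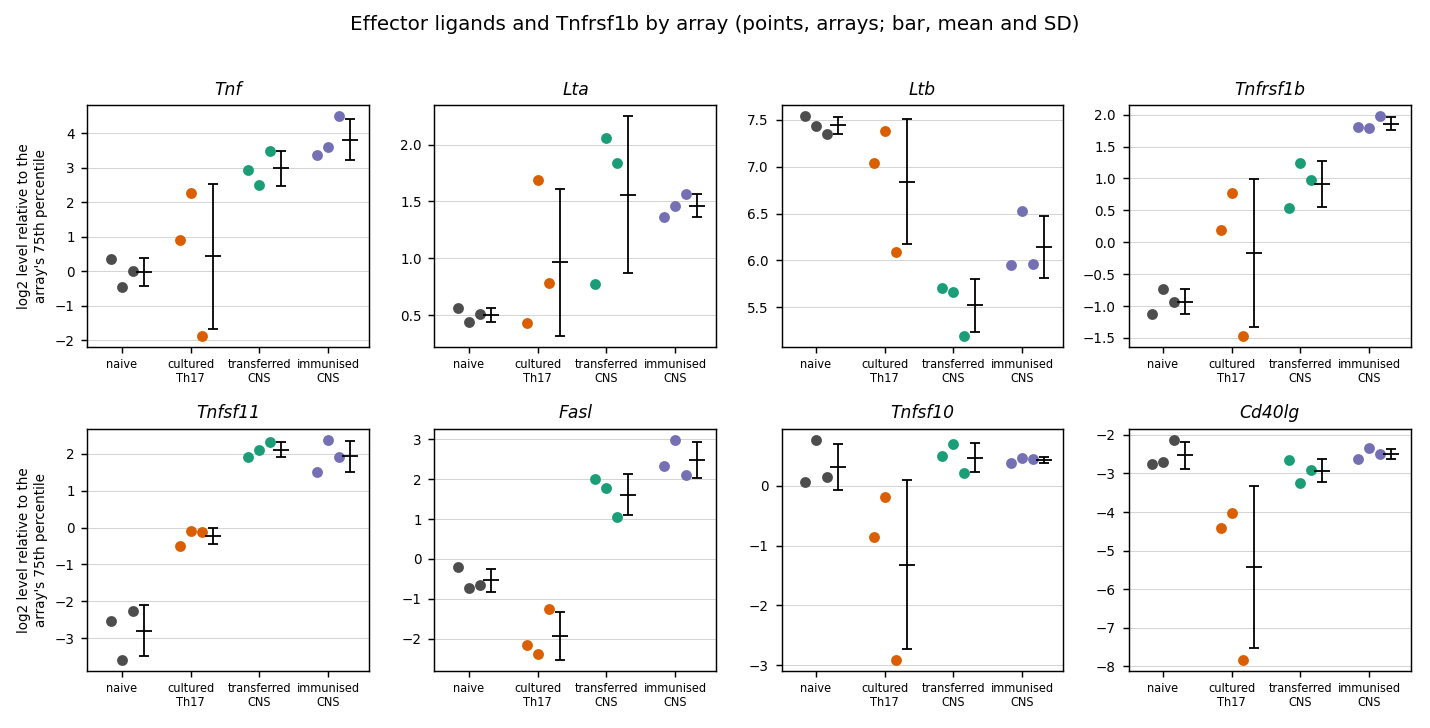
Levels of effector ligand genes and of Tnfrsf1b on each array, as log2 signal relative to the array's 75th percentile on the vertical axis and the 4 groups on the horizontal axis, with the mean and SD of 3 arrays. Tnf, Tnfsf11 and Fasl are higher on all CNS arrays than on all naive and culture arrays, and culture replicate 3 is the lowest array for Tnf, Tnfsf10 and Cd40lg.

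Both TNF receptor genes were higher in CNS cells than in naive cells. Tnfrsf1a encodes the death-domain receptor TNFR1, found on most cells. Its brighter probe measured 2.16 ± 0.17, 2.59 ± 0.66, 3.04 ± 0.18 and 3.44 ± 0.40 in naive, cultured, transferred and immunised cells (mean ± SD, n = 3). It was above naive cells by 0.88 ± 0.31 (adjusted p = 0.0382) in transferred and 1.28 ± 0.31 (adjusted p = 0.00661) in immunised cells, and the transfer call was lost without naive replicate 1, 2 or 3, transfer replicate 1, 2 or 3 or immunised replicate 1 (adjusted p from 0.0508 to 0.112) and with the deposited matrix values (0.0564), with median scaling (0.0608), with no filter on dim probes (0.0623), with quantile normalization (0.056) and with slide, which is the replicate number, as a block (0.0574). Culture differed from naive cells by 0.43 ± 0.31 (adjusted p = 0.3), which passed without culture replicate 3 (adjusted p = 0.0222). Immunised cells differed from culture by 0.85 ± 0.31 (adjusted p = 0.0614), which passed without culture replicate 2 or immunised replicate 2 (adjusted p from 0.0318 to 0.0386). The second Tnfrsf1a probe gave a larger difference of 1.26 between culture and naive cells and −0.22 between transferred cells and culture. Tnfrsf1b encodes TNFR2, which T cells carry after activation. Its levels were −1.12, −0.73 and −0.94 on the naive arrays, 0.19, 0.77 and −1.47 on the cultured Th17 arrays, 0.53, 1.25 and 0.97 on the transferred CNS arrays and 1.80, 1.79 and 1.97 on the immunised CNS arrays. The immunised arrays were the highest, and the culture arrays overlapped both the naive and the transferred ones. Tnfrsf1b was higher than in naive cells by 1.85 ± 0.46 (adjusted p = 0.00701) in transferred and 2.78 ± 0.46 (adjusted p = 0.000675) in immunised cells, and higher in immunised cells than in culture by 2.02 ± 0.46 (adjusted p = 0.0072). It passed the threshold between culture and naive cells without culture replicate 3 (adjusted p = 0.00171), between immunised and transferred cells without culture replicate 3 (adjusted p = 0.0374), and between transferred cells and culture without culture replicate 2 (adjusted p = 0.0228).

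Ltbr encodes the lymphotoxin beta receptor, which is known from stromal and myeloid cells and is not a typical T cell gene. Among members well above background on every transferred and naive array, it had the largest difference between those groups. Its levels (probe chr6:125256614-125256673) were −5.07, −4.97 and −4.81 on the naive arrays, −2.12, −1.81 and −2.24 on the cultured Th17 arrays, 1.59, 2.21 and 2.47 on the transferred CNS arrays and 1.85, 0.93 and 2.17 on the immunised CNS arrays. Every CNS array lay above every culture array, and every culture array above every naive one. Ltbr rose by 2.89 ± 0.32 (adjusted p = 6.15e-05) in culture and by a further 4.15 ± 0.32 (adjusted p = 1.43e-05) in transferred cells, which were 131-fold above naive cells. Immunised cells were 6.60 ± 0.32 (adjusted p = 3.34e-07) above naive cells and 3.71 ± 0.32 (adjusted p = 2.12e-05) above culture. The macrophage list moved with it, from at most 8.03 on culture arrays to at least 404 on CNS arrays, and the part of those cells in the Ltbr values was not tested. In RNA from a mixture of cells, more cells of a type and more RNA per cell cannot be told apart.

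Cd40, the receptor gene of B cells and antigen-presenting cells, and Tnfsf13b, the BAFF gene of myeloid cells, were also lowest in naive cells. Cd40 levels (probe chr2:164897085-164897144) were −6.47, −7.94 and −6.79 on the naive arrays, −2.44, −1.24 and −4.05 on the cultured Th17 arrays, −0.89, −0.41 and −0.22 on the transferred CNS arrays and −0.28, −0.71 and 0.70 on the immunised CNS arrays. No naive array was well above background, and all the others were. The Cd40 level was at least 7.96-fold higher in culture (adjusted p = 0.000372), at least 33.4-fold higher in transferred (adjusted p = 2.63e-05) and at least 44.4-fold higher in immunised cells (adjusted p = 1.76e-05) than in naive cells. It was higher than in culture by 2.07 ± 0.65 (adjusted p = 0.0367) after transfer and 2.48 ± 0.65 (adjusted p = 0.0156) after immunisation. The first of these was lost without culture replicate 1 or 3, transfer replicate 1, 2 or 3 or immunised replicate 1 (adjusted p from 0.0529 to 0.107) and with no filter on dim probes (0.0601), in a fit of only the 6 arrays compared (0.0833) and with slide, which is the replicate number, as a block (0.065), and the second without immunised replicate 3 (adjusted p = 0.0644) and in a fit of only the 6 arrays compared (0.056). Tnfsf13b levels (probe chr8:10035561-10035620) were −6.57, −6.00 and −4.99 on the naive arrays, −1.37, −2.75 and −0.77 on the cultured Th17 arrays, 0.04, −0.55 and −1.71 on the transferred CNS arrays and −0.57, −0.97 and 0.34 on the immunised CNS arrays. The culture and CNS arrays overlapped, and 1 of the 3 naive arrays was well above background. With the 2 dim naive arrays taken at the limit of measurement, Tnfsf13b was at least 13-fold higher in culture (adjusted p = 0.000399), at least 24.1-fold higher in transferred (adjusted p = 9.45e-05) and at least 30.5-fold higher in immunised cells (adjusted p = 6.53e-05) than in naive cells. The differences of Tnfsf13b from culture missed the threshold, at 0.89 ± 0.62 (adjusted p = 0.321) in transferred and 1.23 ± 0.62 (adjusted p = 0.154) in immunised cells.

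Tnfrsf21 encodes DR6, a death-domain receptor known in neurons, glia and T cells. Its levels (probe chr17:43225326-43225385) were −6.70, −6.95 and −6.32 on the naive arrays, −4.99, −4.10 and −5.88 on the cultured Th17 arrays, −2.02, −1.40 and −1.43 on the transferred CNS arrays and −1.19, −1.94 and −0.73 on the immunised CNS arrays. No naive array was well above background, 2 culture arrays and all CNS arrays were. Tnfrsf21 was at least 15.5-fold higher in transferred (adjusted p = 1.09e-05) and at least 19.5-fold higher in immunised cells (adjusted p = 7.01e-06) than in naive cells. It was higher than in culture by 3.37 ± 0.44 (adjusted p = 0.000337) and 3.70 ± 0.44 (adjusted p = 0.00016). With the dim culture array taken at the limit of measurement, these were at least 9.52-fold and 12-fold. Culture was at least 1.5-fold above naive cells (adjusted p = 0.0118), a call that was lost with normexp background correction (0.357).

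Within the immunised group, Ltbr, Cd40, Tnfsf13b, Tnfrsf21 and Tnfrsf11a were each lowest on replicate 2 and highest on replicate 3, as was the summed macrophage signal, which was 404 on replicate 2 and 942 on replicate 3. Other members had the same order, among them Tnfsf9, Cd70, Tnfrsf9, Tnfrsf1a, Tnfrsf1b, Tnfrsf12a and Tnfsf12, so this order does not set the genes named first apart. Tnfrsf4, Tnfsf11 and Fasl were instead highest on replicate 2 of that group. Within the transferred group the macrophage sum was lowest on replicate 1 and highest on replicate 2. Ltbr, Cd40, Tnfrsf21 and Tnfrsf11a were lowest on replicate 1, as was Tnfsf11. Of these genes only Tnfrsf21 was highest on replicate 2, and Ltbr, Cd40, Tnfrsf11a and Tnfsf11 were highest on replicate 3. Tnfsf13b was instead highest on replicate 1. These orders rest on 3 arrays each and are given without a test.

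**Figure D5:**
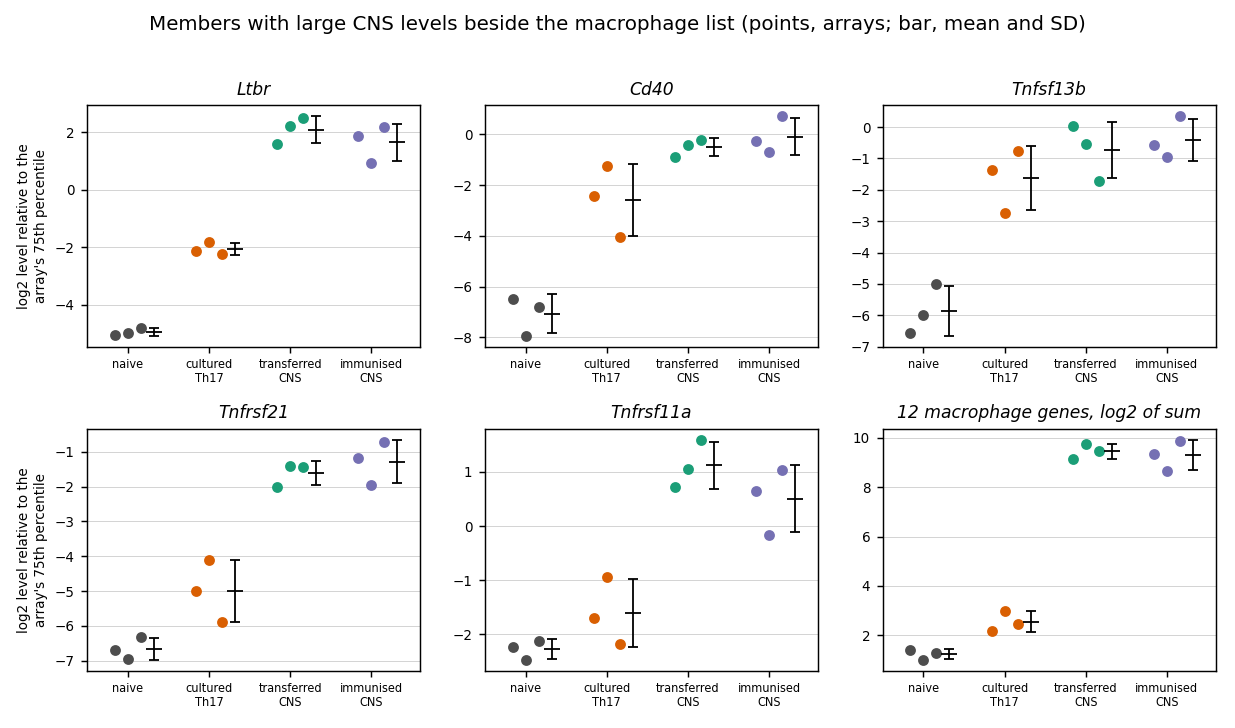
Levels of Ltbr, Cd40, Tnfsf13b, Tnfrsf21 and Tnfrsf11a on each array, as log2 signal relative to the array's 75th percentile, beside the log2 of the summed signal of the 12 macrophage genes, with the mean and SD of 3 arrays. All 6 panels have their lowest mean in naive cells, and the macrophage sum separates the CNS arrays from all the others.

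The RANK axis holds Tnfsf11, its receptor gene Tnfrsf11a and the decoy receptor gene Tnfrsf11b. Tnfsf11 encodes RANK ligand, the cytokine that drives osteoclast formation and that helper T cells make on activation. Its levels (probe chr14:78677444-78677503) were −2.54, −3.58 and −2.26 on the naive arrays, −0.49, −0.09 and −0.13 on the cultured Th17 arrays, 1.92, 2.09 and 2.32 on the transferred CNS arrays and 1.52, 2.37 and 1.91 on the immunised CNS arrays. The groups formed 3 steps without overlap, with naive arrays lowest, culture arrays between and the arrays of both CNS groups together at the top. Tnfsf11 rose by 2.56 ± 0.33 (adjusted p = 0.000176) in culture, a 5.89-fold difference, and by a further 2.35 ± 0.33 (adjusted p = 0.000568) in transferred cells. Transferred and immunised cells were 30-fold and 26.4-fold above naive cells, with differences of 4.91 ± 0.33 (adjusted p = 2.21e-06) and 4.72 ± 0.33 (adjusted p = 2.7e-06). The difference between the CNS groups was −0.18 ± 0.33 (adjusted p = 0.805). Beside these steps the macrophage sum was at most 2.67 on naive, at most 8.03 on culture and at least 404 on CNS arrays, and its part in the Tnfsf11 values was not tested.

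Tnfrsf11a encodes RANK, the receptor of osteoclast precursors and dendritic cells. Its levels (probe chr1:107741892-107741951) were −2.23, −2.47 and −2.12 on the naive arrays, −1.69, −0.94 and −2.18 on the cultured Th17 arrays, 0.72, 1.06 and 1.58 on the transferred CNS arrays and 0.65, −0.17 and 1.03 on the immunised CNS arrays. Naive and culture arrays overlapped, and all CNS arrays lay above them. The receptor gene was higher than in culture by 2.73 ± 0.37 (adjusted p = 0.000483) in transferred and by 2.11 ± 0.37 (adjusted p = 0.00194) in immunised cells, and the part of macrophage RNA in these values was not tested. Against naive cells the differences were 3.39 ± 0.37 (adjusted p = 5.1e-05) and 2.78 ± 0.37 (adjusted p = 0.000202). Tnfrsf11b gave levels from −7.55 to −7.10 on 9 of the 12 arrays and reached −4.39 and −1.62 on culture replicates 1 and 2 and −4.13 on immunised replicate 3, without passing the filter in any group.

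In the death group, both ligand genes were higher in each CNS group than in culture. Of the 6 receptor genes Fas, Tnfrsf10b and Tnfrsf22 were lower, Tnfrsf21 was higher and Tnfrsf23 and Tnfrsf26 were not called. Over all genes tested, 12.8% were higher and 15.5% lower in transferred cells than in culture, and 13.7% and 17.8% in immunised cells. The Tnfrsf22 calls rest on the brighter of its 2 probes. Fasl encodes Fas ligand, through which T cells kill Fas-bearing cells and one another. Its levels (probe chr1:163711056-163711115) were −0.20, −0.73 and −0.66 on the naive arrays, −2.16, −2.37 and −1.25 on the cultured Th17 arrays, 2.01, 1.79 and 1.04 on the transferred CNS arrays and 2.34, 2.97 and 2.11 on the immunised CNS arrays. The culture arrays were the lowest of all, below the naive ones, and the CNS arrays the highest, with no overlap between the 3 levels. Fasl fell by 1.40 ± 0.36 (adjusted p = 0.0105) in culture. It then rose by 3.54 ± 0.36 (adjusted p = 7.2e-05) in transferred cells, an 11.6-fold difference, and was 4.40 ± 0.36 (adjusted p = 1.59e-05) above culture in immunised cells, a 21.1-fold difference. Both CNS groups also stood above naive cells, by 2.14 ± 0.36 (adjusted p = 0.000733) and 3.0 ± 0.36 (adjusted p = 9.11e-05), and the CNS groups differed from each other by 0.86 ± 0.36 (adjusted p = 0.213). Genes of CD8 T and NK cells, which also use Fas ligand, were measured beside it: their summed signal was 2.77 to 4.05 in naive, 0.42 to 2.0 in cultured, 0.63 to 3.70 in transferred and 2.78 to 3.12 in immunised cells. Of the 5 tested, 3 were higher and 0 lower in immunised cells than in culture, among them Cd8a, at −3.01 against −7.61, and Klrb1c, at −2.15 against −7.44, both well above background on no culture array. In transferred cells 2 were higher and 1 lower than in culture. Against naive cells, 1 was higher and 1 lower in transferred cells, and 2 were higher and 1 lower in immunised cells. Cd8b1 measured 0.77, −1.85, −2.91 and −1.82 on average in naive, cultured, transferred and immunised cells. The part of CD8 T and NK cells in the Fasl values was not tested.

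Fas, the receptor gene, took the reverse course. Its levels were 1.61, 1.82 and 1.44 on the naive arrays, 2.66, 3.05 and 2.16 on the cultured Th17 arrays, 1.56, 1.25 and 0.75 on the transferred CNS arrays and 1.28, 1.26 and 1.23 on the immunised CNS arrays. All culture arrays lay above all other arrays. Fas rose by 1.0 ± 0.26 (adjusted p = 0.0103) in culture and fell by 1.44 ± 0.26 (adjusted p = 0.00225) in transferred cells, with immunised cells also lower than culture (−1.37 ± 0.26, adjusted p = 0.00257). Transferred and immunised cells differed from naive cells by −0.44 ± 0.26 (adjusted p = 0.186) and −0.37 ± 0.26 (adjusted p = 0.254). The pair for TRAIL behaved alike. Tnfsf10, which encodes TRAIL, had levels of 0.06, 0.76 and 0.14 on the naive arrays, −0.86, −0.19 and −2.91 on the cultured Th17 arrays, 0.50, 0.70 and 0.22 on the transferred CNS arrays and 0.37, 0.47 and 0.45 on the immunised CNS arrays. Culture arrays were below all others. Tnfsf10 fell by 1.64 ± 0.54 (adjusted p = 0.0346) in culture, and was above culture by 1.79 ± 0.54 (adjusted p = 0.0318) in transferred and by 1.75 ± 0.54 (adjusted p = 0.0325) in immunised cells. The 3 calls were lost, in that order, without naive replicate 1, 2 or 3 (adjusted p from 0.0546 to 0.101) and with no filter on dim probes (0.0547) and in a fit of only the 6 arrays compared (0.126), without transfer replicate 1, 2 or 3 (adjusted p from 0.0618 to 0.0902) and with no filter on dim probes (0.0529) and in a fit of only the 6 arrays compared (0.117) and without immunised replicate 1, 2 or 3 (adjusted p from 0.076 to 0.0819) and with no filter on dim probes (0.0544) and in a fit of only the 6 arrays compared (0.105).

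Tnfrsf10b, the gene of the mouse death receptor for TRAIL, had levels of −1.14, −0.96 and −0.52 on the naive arrays, −0.03, 0.43 and 0.67 on the cultured Th17 arrays, −1.52, −1.96 and −1.52 on the transferred CNS arrays and −1.41, −0.79 and −1.47 on the immunised CNS arrays. Again the culture arrays were above all others. The gene rose by 1.23 ± 0.26 (adjusted p = 0.00398) in culture and was lower than in culture in transferred (−2.02 ± 0.26, adjusted p = 0.000349) and immunised cells (−1.58 ± 0.26, adjusted p = 0.00135). It was also lower in transferred than in naive cells (−0.79 ± 0.26, adjusted p = 0.0294), a call that was lost without naive replicate 2 or 3 or transfer replicate 2 (adjusted p from 0.0527 to 0.111). Between culture and the CNS, Fasl and Tnfsf10 thus rose while Fas and Tnfrsf10b fell, in transferred and in immunised cells.

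Tnfrsf26, Tnfrsf22 and Tnfrsf23 lie side by side on chromosome 7, with 32.6 and 25.0 kb between their probes, and encode relatives of the TRAIL receptor, of which Tnfrsf22 and Tnfrsf23 are known as decoys. As closely related copies they could share probe signal, which was not tested. Tnfrsf26 levels were 0.22, 0.72 and 0.55 on the naive arrays, −0.10, −1.10 and −0.15 on the cultured Th17 arrays, −0.58, −1.65 and −1.13 on the transferred CNS arrays and −0.40, −0.31 and −1.07 on the immunised CNS arrays. The naive arrays were the highest. It was lower than in naive cells in transferred cells (−1.62 ± 0.35, adjusted p = 0.00325), in immunised cells (−1.09 ± 0.35, adjusted p = 0.0243) and in culture (−0.95 ± 0.35, adjusted p = 0.05). The culture p was under the threshold only before rounding, and that call was lost without naive replicate 1, 2 or 3, culture replicate 2, transfer replicate 3 or immunised replicate 1 or 2 (adjusted p from 0.0575 to 0.168) and with median scaling (0.0941), with no filter on dim probes (0.0786), in a fit of only the 6 arrays compared (0.0734) and with slide, which is the replicate number, as a block (0.064), and the immunised call without naive replicate 2 or 3 or immunised replicate 3 (adjusted p from 0.063 to 0.101). Tnfrsf22 levels were −3.0, −2.91 and −2.91 on the naive arrays, −2.38, −2.96 and −1.43 on the cultured Th17 arrays, −3.27, −3.85 and −3.55 on the transferred CNS arrays and −3.61, −3.24 and −3.83 on the immunised CNS arrays. Culture replicate 3 was the highest array. By its brighter probe, Tnfrsf22 was lower than in culture in transferred (−1.30 ± 0.33, adjusted p = 0.016) and immunised cells (−1.30 ± 0.33, adjusted p = 0.0142). The first call was lost without transfer replicate 2 (adjusted p = 0.0589) and with normexp background correction (0.0513) and in a fit of only the 6 arrays compared (0.0752), and the second without immunised replicate 3 (adjusted p = 0.0563) and in a fit of only the 6 arrays compared (0.0641). Without culture replicate 3, both CNS groups passed the threshold against naive cells (adjusted p = 0.04 and 0.0384), and without culture replicate 2 the culture did (adjusted p = 0.0238). A second Tnfrsf22 probe, well above background on every array, differed from culture by only −0.24 in transferred and −0.02 in immunised cells. The fall from culture therefore rests on the brighter probe. Tnfrsf23 group means ran from −0.99 to −0.54.

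Cd40lg encodes CD40 ligand, the signal by which helper T cells activate B cells and antigen-presenting cells. Its levels (probe chrX:54477066-54477125, the X chromosome) were −2.76, −2.69 and −2.14 on the naive arrays, −4.42, −4.01 and −7.83 on the cultured Th17 arrays, −2.64, −3.23 and −2.92 on the transferred CNS arrays and −2.63, −2.35 and −2.51 on the immunised CNS arrays. Naive and CNS arrays overlapped, and all culture arrays lay below them, with replicate 3 not well above background. Cd40lg fell by 2.89 ± 0.78 (adjusted p = 0.0132) in culture, and was above culture by 2.49 ± 0.78 (adjusted p = 0.035) in transferred and 2.93 ± 0.78 (adjusted p = 0.0162) in immunised cells. The first and last of these were lost in a fit of only the 6 arrays compared (0.0731) and in the same kind of fit (0.0755), and the second was lost without transfer replicate 1, 2 or 3 or immunised replicate 1 (adjusted p from 0.0512 to 0.0898) and with no filter on dim probes (0.0575) and in a fit of only the 6 arrays compared (0.128). CNS cells and naive cells differed by −0.40 ± 0.78 (adjusted p = 0.702) and 0.04 ± 0.78 (adjusted p = 0.974). With culture replicate 3 taken at the limit of measurement, Cd40lg was at least 4.35-fold lower in culture than in naive cells. It was at least 3.29-fold and 4.46-fold higher in transferred and immunised cells than in culture.

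Tnfsf12 encodes TWEAK and Tnfrsf12a its receptor Fn14, which is induced in injured tissue. Tnfsf12 means by the brighter probe were −1.13 ± 0.21, −0.96 ± 0.05, −0.23 ± 0.24 and −0.52 ± 0.36 in naive, cultured, transferred and immunised cells (mean ± SD, n = 3). The gene was higher in transferred cells than in naive cells by 0.90 ± 0.21 (adjusted p = 0.00481) and than in culture by 0.73 ± 0.21 (adjusted p = 0.0238), and higher in immunised than in naive cells by 0.61 ± 0.21 (adjusted p = 0.0332). The last 2 calls were lost without culture replicate 1 or 2 or transfer replicate 2 or 3 (adjusted p from 0.0526 to 0.0883) and with median scaling (0.109) and without naive replicate 2 or 3 or immunised replicate 1 or 3 (adjusted p from 0.0698 to 0.138) and with median scaling (0.0725), with no filter on dim probes (0.0576) and in a fit of only the 6 arrays compared (0.0618), respectively. A dimmer Tnfsf12 probe gave wider gaps, at −3.65 ± 0.20, −4.19 ± 0.70, −1.09 ± 0.30 and −1.26 ± 0.70 in the same order, and with the mean of both probes immunised cells stood above culture by 1.69 (adjusted p = 0.0012). Tnfrsf12a means were −0.77 ± 0.94, −1.06 ± 0.56, 0.34 ± 0.51 and 0.73 ± 0.40. It was higher than in culture by 1.40 ± 0.47 (adjusted p = 0.046) in transferred and 1.79 ± 0.47 (adjusted p = 0.0152) in immunised cells, and higher in immunised than in naive cells by 1.49 ± 0.47 (adjusted p = 0.0225). These calls were lost, in that order, without naive replicate 3, culture replicate 1 or 2, transfer replicate 1, 2 or 3 or immunised replicate 1, 2 or 3 (adjusted p from 0.0514 to 0.155) and with median scaling (0.0644) and with no filter on dim probes (0.0752), without culture replicate 1 or immunised replicate 3 (adjusted p from 0.054 to 0.0611) and without naive replicate 2 or 3 or immunised replicate 3 (adjusted p from 0.0667 to 0.0869). Transferred cells passed against naive cells only without naive replicate 1 (adjusted p = 0.0105). The macrophage sum was at most 8.03 on culture arrays and at least 404 on CNS arrays. From naive cells to culture that sum rose while the Tnfrsf12a mean did not. Within the transferred group Tnfrsf12a was lowest on replicate 2, where the sum was highest. The part of macrophage RNA in the Tnfsf12 and Tnfrsf12a values was not tested.

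Of the BAFF receptor genes, which are best known from B cells, Tnfrsf13b (TACI) was well above background on every array, and its levels were 1.60, 1.72 and 1.58 on the naive arrays, 1.99, 1.45 and 0.47 on the cultured Th17 arrays, 2.45, 2.65 and 2.66 on the transferred CNS arrays and 1.87, 1.93 and 2.04 on the immunised CNS arrays. The transferred arrays were the highest. It was higher there than in culture by 1.29 ± 0.30 (adjusted p = 0.0107) and than in naive cells by 0.96 ± 0.30 (adjusted p = 0.0245). The first call was lost with the mean of all the gene's probes (0.0748) and in a fit of only the 6 arrays compared (0.0683), and the second without naive replicate 1 or 3 or transfer replicate 2 or 3 (adjusted p from 0.0594 to 0.067) and with the mean of all the gene's probes (0.526). Immunised cells passed against culture without culture replicate 1 (adjusted p = 0.0193) and against transferred cells without culture replicate 3 (adjusted p = 0.0461). Tnfrsf13c, the BAFF receptor gene, had a culture level of −1.95 on replicate 3 against −3.96 and −4.39, and a transferred level of −6.79 on replicate 3 against −4.42 and −4.63. Its difference of −1.85 ± 0.70 (adjusted p = 0.0736) between transferred cells and culture passed without culture replicate 2 (adjusted p = 0.0473) and with median scaling (0.0473), and its difference of 2.34 ± 0.70 (adjusted p = 0.1) between immunised and transferred cells passed without culture replicate 3 (adjusted p = 0.0394). Transfer replicate 3 was not well above background, and with it taken at the limit of measurement these were at least 2.83-fold and 3.98-fold. Of 8 B cell genes on the marker list, 6 were tested: in transferred cells 0 were higher and 4 lower than in naive cells and 0 higher and 3 lower than in culture, and 2 were higher in immunised than in transferred cells. The part of B cells in the Tnfrsf13b values was not tested. Tnfrsf17 gave −3.64 and −3.56 on naive replicates 1 and 3 and −8.23 to −6.04 on all other arrays.

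Tnfrsf19 encodes TROY, a receptor of the developing nervous system. Its brighter probe measured −3.54, −5.15 and −3.14 on the naive arrays, −5.48, −4.91 and −5.40 on the cultured Th17 arrays, −6.33, −7.71 and −6.12 on the transferred CNS arrays and −5.41, −5.67 and −5.99 on the immunised CNS arrays. No transferred array and 1 immunised array was well above background. The level was at least 3.18-fold lower in transferred than in naive cells (adjusted p = 0.00157), and at least 2.85-fold lower in immunised than in naive cells (adjusted p = 0.0188). The second call was lost without naive replicate 1 or 3 or immunised replicate 3 (adjusted p from 0.0639 to 0.0749) and with the mean of all the gene's probes (0.131). Culture passed against naive cells without naive replicate 2 or transfer replicate 2 (adjusted p from 0.00783 to 0.0446), and transferred cells passed against culture without naive replicate 2 (adjusted p = 0.0225) and with the deposited matrix values (0.0236), with median scaling (0.0234) and with quantile normalization (0.0243). A second probe of the gene was well above background on 1 of the 12 arrays, a culture array, and so gives no comparison of the CNS groups with naive cells.

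Genes that act below the receptors were taken from a list of 55, of which 52 were tested. The list and its counts also include 7 genes that do not act below the receptors. These are the sheddase genes Adam17 and Adam10 and the family members Eda, Edar, Eda2r, Ngfr and Relt, whose names fall outside the rule. In culture against naive cells 12 were higher and 8 lower (19.7% and 20.4% of all genes), in transferred cells against culture 10 and 10 (12.8% and 15.5% of all genes), and in immunised against transferred cells 0 and 0 by limma with Benjamini-Hochberg adjustment (9 at an unadjusted p under 0.05). The number called in transferred cells against culture was 12 without transfer replicate 2 or immunised replicate 1 and 8 without transfer replicate 3. Of the 9 genes for NF-kappaB factors and their inhibitors, 5 were higher and 0 lower in transferred cells than in naive cells (21.2% and 26.5% of all genes), and 8 were higher and 0 lower in immunised cells (20.6% and 27.7% of all genes). Rel, the c-Rel subunit gene, was well above background on every CNS array and on no naive or culture array, and was at least 5.05-fold higher in transferred cells than in culture (adjusted p = 0.000147) and at least 7.07-fold higher in immunised cells than in culture (adjusted p = 5.62e-05). Tnfaip3, the gene of the NF-kappaB inhibitor A20, was higher in immunised cells than in naive cells by 3.43 ± 0.76 (adjusted p = 0.00405) and than in culture by 3.18 ± 0.76 (adjusted p = 0.00997). Bcl3, an atypical NF-kappaB cofactor gene, followed Tnfrsf8 in being highest in culture: it rose by 2.35 ± 0.26 (adjusted p = 6.9e-05) over naive cells and fell by 2.01 ± 0.26 (adjusted p = 0.000361) in transferred cells. Traf1, an adaptor that binds TNFR2, OX40 and 4-1BB, rose by 1.24 ± 0.22 in culture (adjusted p = 0.0014) and fell by 2.54 ± 0.22 in transferred cells (adjusted p = 3.02e-05), to below its naive level (−1.30, adjusted p = 0.000863). Traf5, which binds OX40 and CD27, fell by 2.30 ± 0.20 in culture (adjusted p = 1.39e-05) and remained below naive cells in transferred cells, at −1.54 (adjusted p = 0.000139), and in immunised cells, at −1.30 (adjusted p = 0.000431). Of the death branch, Mlkl, the effector of necroptosis, rose by 3.30 ± 0.42 in culture (adjusted p = 0.000161), and Cflar, the inhibitor of caspase 8 activation, fell by 1.14 ± 0.31 in culture (adjusted p = 0.014) and was higher in immunised cells than in culture by 2.29 ± 0.31 (adjusted p = 0.000384). The sheddase gene Adam17, whose product releases TNF from the membrane, was higher in immunised cells than in culture by 1.36 ± 0.34 (adjusted p = 0.0121). On the same arrays the macrophage sum was at most 8.03 in culture and at least 404 in CNS cells. The part of the cell mixture in the values of the signalling list was not tested.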

How the data were processed

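CD4+ T cell RNA was labelled with Cy3 from 100 ng per sample and hybridised to single-colour arrays, per the labels' protocols. The authors deposited one scanner table per array, made with Agilent Feature Extraction 10.7.3.1 (protocol GE1_107_Sep09), per the file headers. Its processed intensity is linear, background-subtracted and not scaled between arrays, per the file headers. The authors also deposited a matrix of normalized intensities, each column of which, taken to log2, correlated with its own array at r of 0.9981 or more. The matrix on the log2 scale served as an alternative.

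Outlier spots and control spots were left out, spots of a probe were averaged on the log2 scale, and each array's 75th percentile was subtracted. Of 39429 probes 39405 were used, probe names were updated through RefSeq accessions and synonyms, and each gene was represented by its brightest probe. A gene was tested if its probe was well above background on each of the 3 arrays of some group (18631 genes). The 12 arrays were fitted in a single model with limma 3.58.1 in R 4.3.3, and p-values were Benjamini-Hochberg adjusted over all genes in each of the 6 comparisons. The test was checked on simulated data. Values on every array are given for Tnfrsf4, Tnfrsf18, Tnfsf11, Fasl and Tnf and for the called members without overlap that have the largest differences, up to 5 higher and 5 lower per comparison; Tnfrsf1b, Tnfrsf9 and Tnfrsf13b were added after their values were seen.

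The members, marker lists and signalling list were chosen with earlier results of these data known. Each slide held 1 array of every group with the same replicate number, and all 106 called member differences had the same sign on each of the 3 slides. Where groups do not overlap, as for nearly all of these calls, the shared sign follows from that and is no separate check. The number of arrays limits the precision. Alternatives were the other normalizations, filters, probe rules and fits named in the closing section, and leaving out each array in turn.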

Additional observations from a re-analysis of the deposited data

How the results depend on the processing

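Of 106 member differences called over the 6 comparisons, 71 kept their direction and their call under all 22 alternatives that gave a value, including the 12 that leave out 1 array. One reversed: Tnfrsf9 in transferred against cultured cells was 1.84 with its brighter probe and −0.19 with the mean of both probes, which disagree.

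Counts of called members that moved by over 1.5 times were these. Culture against naive cells gave 13 when only genes well above background on all 12 arrays were tested, where fewer genes enter. Transferred cells against culture gave 11 in a fit of only the 6 arrays compared. Immunised against transferred cells gave 2 in such a fit. For the signalling list, transferred cells against culture gave 20 called genes and 12 with median scaling, 11 with no filter on dim probes, 9 in a fit of only the 6 arrays compared and 8 to 18 with 1 array left out, and immunised against transferred cells gave 0 and, in 6 alternatives, 1. With 1 array left out, the counts ran from 17 to 25 for culture against naive cells, 11 to 20 for transferred cells against culture, 1 to 5 for immunised against transferred cells, 22 to 28 for transferred against naive cells, 17 to 22 for immunised against naive cells and 12 to 21 for immunised cells against culture.

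With the replicate number, which is also the slide, as a block, the counts in that order were 19, 18, 1, 26, 22 and 17. Deviations of same-numbered samples from their group means correlated at −0.198 to 0.204, above 0.1 in 4 of 18 pairs, so the numbers were not taken to pair the samples. The block ended the calls of Cd40 and Tnf in transferred cells against culture (adjusted p = 0.065 and 0.0653), of Tnfrsf26 in culture against naive cells (adjusted p = 0.064) and of Tnfrsf1a in transferred against naive cells (adjusted p = 0.0574), and it brought the fall of Tnfrsf25 in transferred against naive cells past the threshold (adjusted p = 0.0396). It changed no other member's call.

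Median scaling moved the median of all genes tested from −0.08 to 0.03 in culture against naive cells and from −0.10 to −0.21 in transferred cells against culture. A member dimmer than background has only a bound, and with 3 arrays a group a difference of several standard errors could miss the threshold over all genes, as for Tnfrsf13c between the CNS groups (2.34 ± 0.70, adjusted p = 0.1). That difference includes transfer replicate 3, which was not well above background, and its bound is at least 3.98-fold.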
